A study of Mus musculus with 10 samples.

Results

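The genes described here encode the mouse receptors for the Fc part of immunoglobulin G and the signalling proteins next to them: Fcgr1, Fcgr2b, Fcgr3, Fcgr4, Fcer1g, Syk, Ptpn6, Ptprc and Btk. They were picked by symbol, and all 9 were found among the 31510 genes of the deposited table. Hippocampi were taken from 10 male APP/PS1 mice (stock 34832-JAX), which carry transgenes for mutant human amyloid precursor protein and presenilin under the mouse prion protein promoter and deposit amyloid in the brain. At 8 months of age, 5 mice were injected in the tail vein with AAV8-GFP and 5 with AAV8-Irisin-FLAG, and tissue was taken 2 months later for bulk RNA sequencing. The groups are called GFP and irisin mice. Irisin is the secreted part of the protein encoded by Fndc5, and the injection was meant to make the liver its source. All mice of both groups carry the amyloid transgenes and an AAV8 vector, so the comparison is of irisin against GFP within diseased brain, and healthy brain was not analysed here.

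Receptors for IgG let phagocytes take up material coated with antibody. In the brain they are carried mainly by microglia and border macrophages, and they are studied in amyloid disease because antibodies against amyloid beta engage them. Activating receptors (Fcgr1, Fcgr3 and Fcgr4) pair with the common gamma chain encoded by Fcer1g, whose immunoreceptor tyrosine-based activation motif (ITAM) recruits the kinase Syk once Src-family kinases have phosphorylated it. Fcgr2b is the inhibitory receptor of the family and carries its own inhibitory motif. The phosphatase encoded by Ptpn6 dampens such signals, Ptprc encodes the leukocyte phosphatase that activates Src-family kinases, and Btk is a Tec-family kinase that acts below Syk.

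The neighbours of the family lie together on chromosome 1 of mm10: Fcgr2b (170958617 to 170976547, minus strand), Fcgr4 (171018920 to 171029761, plus strand), Fcgr3 (171051174 to 171064935, minus strand) and Fcer1g (171229572 to 171234365, minus strand). Fcgr1 is on chromosome 3 (96282909 to 96293969, minus strand). The promoters of 3 receptors are shown because Fcgr2b and Fcgr3 varied together between mice while no such relation was shown for Fcgr1 and Fcgr3, as described further on. Each is the RefSeq window of GRCm38.p6 (the same assembly as mm10) from 250 bases before to 50 bases after a start annotated in RefSeq, the first listed for the gene, and capitals mark the letters GAGGAA where they read on either strand. These letters are the core of the site bound by the myeloid transcription factor PU.1.
Fcgr1 (chr3:96293920-96294219, minus strand): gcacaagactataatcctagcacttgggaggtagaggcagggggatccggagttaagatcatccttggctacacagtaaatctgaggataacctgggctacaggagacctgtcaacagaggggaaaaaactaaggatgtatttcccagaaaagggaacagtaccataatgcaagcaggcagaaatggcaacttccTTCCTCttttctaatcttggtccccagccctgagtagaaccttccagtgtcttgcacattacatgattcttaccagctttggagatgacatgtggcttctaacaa
Fcgr3 (chr1:171059354-171059653, minus strand): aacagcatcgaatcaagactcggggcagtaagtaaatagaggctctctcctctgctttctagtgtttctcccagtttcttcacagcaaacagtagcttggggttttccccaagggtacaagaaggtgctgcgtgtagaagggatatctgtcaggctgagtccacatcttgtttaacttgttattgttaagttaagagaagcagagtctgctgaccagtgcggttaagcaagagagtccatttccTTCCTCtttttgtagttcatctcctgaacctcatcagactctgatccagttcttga
Fcgr2b (chr1:170976022-170976321, minus strand): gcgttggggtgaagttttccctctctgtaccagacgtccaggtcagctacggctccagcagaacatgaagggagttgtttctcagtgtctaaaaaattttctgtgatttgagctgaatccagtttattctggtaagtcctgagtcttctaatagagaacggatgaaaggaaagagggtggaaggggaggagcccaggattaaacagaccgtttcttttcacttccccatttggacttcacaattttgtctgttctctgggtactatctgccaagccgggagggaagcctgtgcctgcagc
Both Fcgr1 and Fcgr3 hold the letters, on the strand opposite the gene, and the Fcgr2b window does not. RefSeq windows were found for all 9 genes, 12 windows in all because some genes have more than 1 start, and 6 of the 9 genes have a match in at least 1 window. Counted by window, 7 of the 12 hold GAGGAA on either strand, beside 28.28% of all 32851 windows of that length. The windows of 1 gene can overlap, as those of Fcgr3 do. The longest string that the Fcgr1 and Fcgr3 windows share, TTCCTTCCTCTTTT, spans these letters, was found by comparing those sequences and so is in both by choice, and it is in 0.0152% of all windows on either strand. The gene positions above are from GENCODE M21. Its starts of Fcgr3 and Fcgr2b lie upstream of the RefSeq starts used here, so those windows are inside the GENCODE genes. A match is a description of letters, and binding was not measured.

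The deposited values are DESeq2 normalised counts. They summed to between 35300000 and 36600000 in a library, and the number of counted reads behind them is not known. Fndc5 had 2610 ± 74.0 normalised counts in GFP mice and 2479 ± 104 in irisin mice (SD, n = 5 each), an endogenous level that does not report on a vector in the liver. Hippocampal neuron markers (Prox1, Wfs1, Fibcd1, Calb1, Bok, Neurod6) summed to between 25590 and 28230 in GFP mice and 26020 and 28210 in irisin mice. The 12 homeostatic microglia markers summed to 15560 to 21410 and 15560 to 19100. By limma no gene differed between the groups at an adjusted p under 0.05 (0% of 17556 genes tested), and 788 genes, 4.49%, had an unadjusted p under 0.05.

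Fcer1g and Fcgr3 were the most abundant of the 9 transcripts. In GFP mice Fcer1g had 371 ± 57.0 and Fcgr3 343 ± 36.4 normalised counts per kilobase of annotated exon (SD, n = 5), which overlap within their spread. Ptpn6 (87.9 ± 20.4) and Fcgr2b (75.02 ± 9.16) followed, then Fcgr1 (53.8 ± 12.8) and Ptprc (41.6 ± 8.33), and each of these 4 overlapped its neighbour in the order within 1 SD. Syk had 28.7 ± 2.52, Btk 18.7 ± 4.405 and Fcgr4 4.35 ± 1.74 on the same per-kilobase scale, apart from each other by more than their SDs. The gamma chain transcript was thus at or above the level of each of the 3 activating receptors per length. Btk and Fcgr4 were at the low end, and Fcgr4 stayed under 10 normalised counts in all 10 libraries.

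Among activating receptors, Fcgr3 had the largest difference between groups of the 8 genes tested, and it was lower in irisin mice. Its normalised counts in GFP mice 1 to 5 were 469, 428, 510.5, 396 and 504, and in irisin mice 1 to 5 they were 457.5, 370.3, 455, 376 and 330.2. Irisin mice 2, 4 and 5 lay below every GFP mouse, while mice 1 and 3 lay inside the GFP range. The log2 difference was −0.22 (SE 0.10), with a 95% interval of −0.43 to −0.0046. The unadjusted p was 0.0459 and the adjusted p over all genes was 0.942 by limma, and the exact two-sided permutation of the 10 mice gave p = 0.0952, where 0.00794 is the smallest this design can give. Fcgr3 did not pass the test. Its log2 difference stayed between −0.27 and −0.16 when each mouse was left out in turn, and its unadjusted p was above 0.05 in 6 of these 10 omissions.

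Fcgr1, the high-affinity receptor, had nearly equal means, 139 ± 33.0 in GFP mice and 141 ± 31.4 in irisin mice (SD, n = 5 each). Its values were 121, 92.4, 146, 164 and 174 in GFP mice 1 to 5 and 184.5, 164, 116, 129 and 114 in irisin mice 1 to 5. The groups overlapped almost completely, and the log2 difference was 0.028 with a 95% interval of −0.36 to 0.41 (adjusted p = 0.987 by limma). That sign turned with GFP mouse 1 or 2 or irisin mouse 1 or 2 left out.

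Fcgr4, the third activating receptor, was close to the limit of detection. Its normalised counts were 4.78, 5.02, 8.84, 2.83 and 5.88 in GFP mice 1 to 5 and 7.64, 6.16, 6.17, 5.39 and 5.87 in irisin mice 1 to 5. It did not reach the minimum of 10 in 5 libraries and was not tested. The mean log2 difference was 0.22 (exact permutation p = 0.381), and all 5 irisin mice lay inside the GFP range.

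The inhibitory receptor gene Fcgr2b had 284, 249, 336, 259 and 301.5 normalised counts in GFP mice 1 to 5 and 337, 268, 286, 258 and 213 in irisin mice 1 to 5. Irisin mouse 1 was the highest of the 10 mice and irisin mouse 5 the lowest. The log2 difference was −0.077 with a standard error of 0.12 (adjusted p = 0.958 by limma), and it was 0.0071 without irisin mouse 5. Fcgr2b and Fcgr3 have closely related sequences: 166 of the 1733 distinct 50-base words in annotated Fcgr3 transcripts, 9.58%, also occur in Fcgr2b transcripts, so the counting could divide some reads between them. Exons of Fcgr2b also overlap those of Gm38204 on the opposite strand, and no source used here gives the setting of strand. The separate values of both receptors are uncertain to that extent.

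Fcer1g, the gamma chain, had normalised counts of 300.2, 237, 312, 226 and 312.5 in GFP mice 1 to 5. Irisin mice 1 to 5 had 278, 281, 297, 222 and 189. Irisin mice 4 and 5 lay below every GFP mouse, and the other three lay inside the GFP range. The log2 difference of −0.14 had a 95% interval of −0.43 to 0.15 (adjusted p = 0.942 by limma, exact permutation p = 0.413).

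Syk (chromosome 13, 52583173 to 52648792, plus strand) was the steadiest of the 9 genes. Its normalised counts ran from 152 to 190 in GFP mice, with a median of 178, and from 147.0 to 192 in irisin mice, with a median of 162. The pooled SD within groups was 0.14 on the log2 scale, against 0.18 for the median gene tested with a mean between 40 and 500 normalised counts. The difference was −0.077 with a 95% interval of −0.29 to 0.13 (adjusted p = 0.952 by limma).

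**Figure D1:**
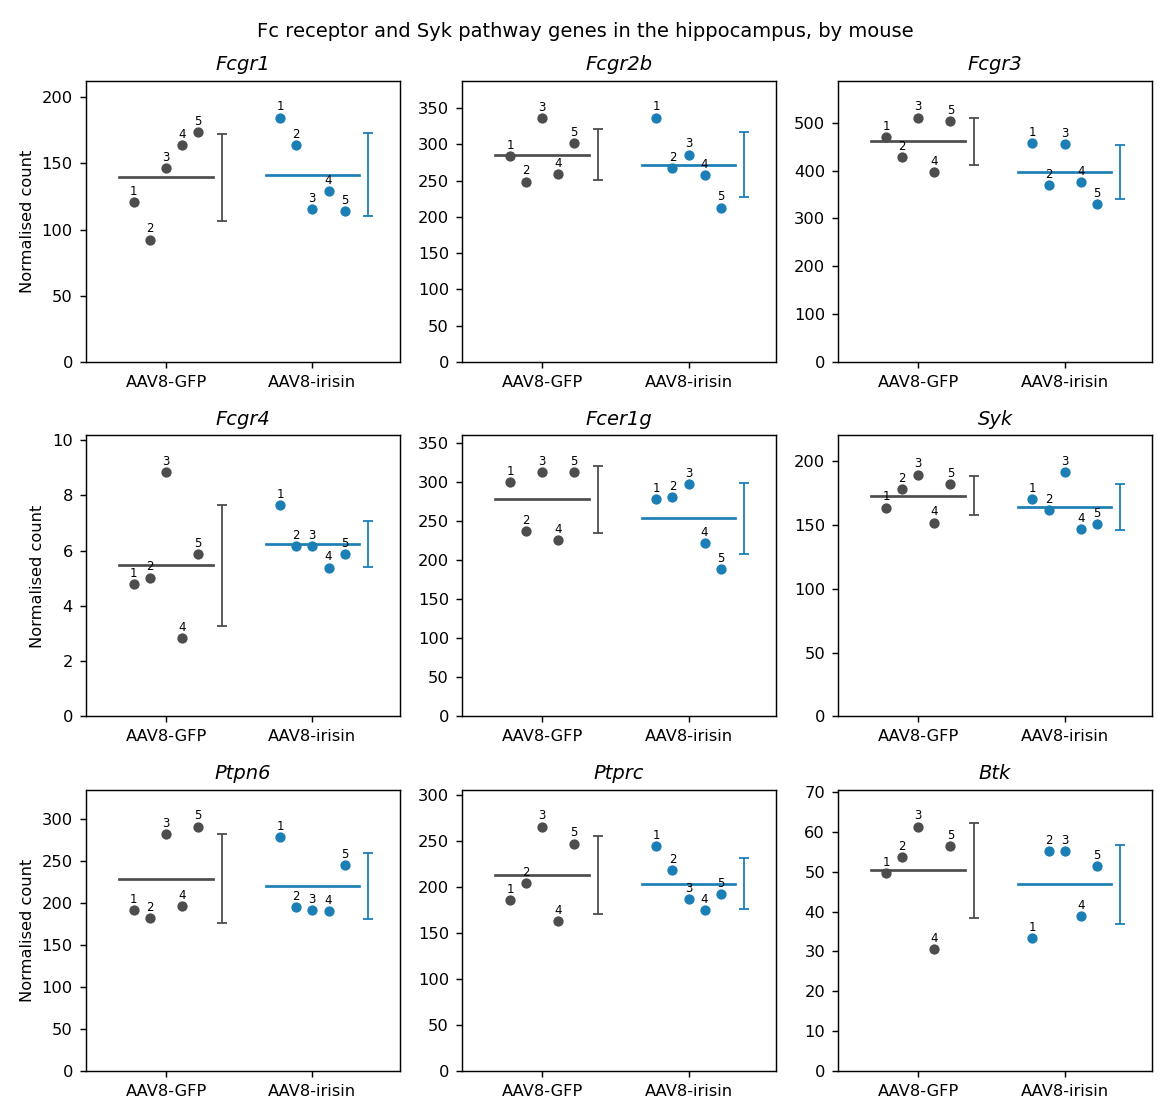
Normalised counts (vertical axes, linear and from 0) of the 9 genes in the hippocampus of each mouse; points are mice labelled with their number, horizontal lines are group means and error bars are SD (n = 5 each). Fcgr3 shows 3 irisin mice below all GFP mice, and in no panel are the groups apart.

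The phosphatase genes did not separate the groups. Ptpn6 (chromosome 6, 124720707 to 124738714, minus strand) had 192, 183, 282, 197 and 291.5 normalised counts in GFP mice 1 to 5 and 279, 196, 192, 191 and 246 in irisin mice 1 to 5. Its values fell into a lower and an upper set within both groups: GFP mice 3 and 5 and irisin mice 1 and 5 were high, and the other 6 mice lay between 183 and 197. The log2 difference was −0.042 with a standard error of 0.15, and its sign turned without GFP mouse 3 or 5, without irisin mouse 3 or 4, and without both of the latter. Exons of Ptpn6 overlap those of Gm20531 on the opposite strand, which leaves its value uncertain.

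Ptprc (chromosome 1, 138062861 to 138175708, minus strand) had 185, 204, 266, 163 and 247 normalised counts in GFP mice 1 to 5 and 245, 218, 187, 175 and 192 in irisin mice 1 to 5. The range of irisin mice lay inside that of GFP mice, and the log2 difference was −0.053 with a standard error of 0.13. Its sign turned without GFP mouse 3 or 5 and with irisin mice 3 and 4 both left out. Btk (chromosome X, 134542336 to 134583570, minus strand) had 30.5 to 61.3 normalised counts in GFP mice, with a median of 53.7, and 33.4 to 55.2 in irisin mice, with a median of 51.4. Its low values belonged to GFP mouse 4 (30.5) and irisin mouse 1 (33.4). The log2 difference of Btk was −0.092 with a 95% interval of −0.53 to 0.35, the widest of the 8 genes, and its sign turned without irisin mouse 1.

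Of the 8 genes tested, 7 had a lower mean in irisin mice, 0 passed at an adjusted p under 0.05, and only Fcgr3 had an unadjusted p under 0.05. Among all genes tested, 49.5% had a lower mean, and 2.21% were lower with an unadjusted p under 0.05. The median log2 difference of the 8 was −0.077, beside 0.00099 over all genes. It ranged from −0.13 without GFP mouse 4 to −0.015 without GFP mouse 3, and the number with a lower mean ranged from 5 to 8 over the omissions of single mice. None of the 9 had groups that did not overlap, which 0.422% of all genes did with lower values in irisin mice and 0.382% with higher values. In bulk tissue, fewer cells of a type and less RNA per cell cannot be told apart.

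**Figure D2:**
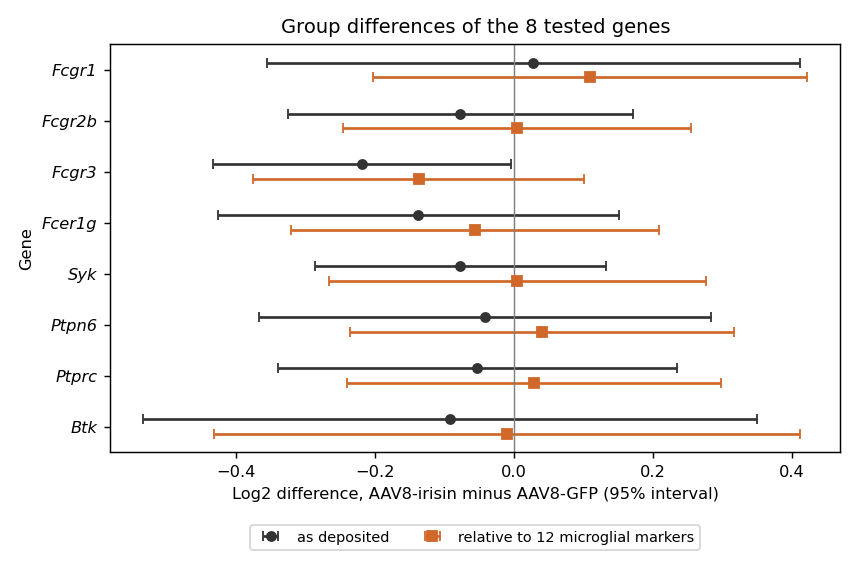
Log2 difference, irisin minus GFP (horizontal axis), of the 8 tested genes with 95% intervals; circles are values as deposited and squares are values relative to the mean of 12 homeostatic microglia markers in the same library. The interval of Fcgr3 as deposited, −0.43 to −0.0046, is the only one that leaves out 0, and relative to microglia it runs from −0.38 to 0.10.

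Microglial markers had lower means as well, and their part in the differences above was not tested. All 12 homeostatic markers were on the lower side in irisin mice (median log2 difference −0.062, 0 of 12 past the test), and the mean of their log2 values differed by −0.082. The 11 plaque-associated markers analysed also all had lower means, with a median of −0.16 and 0 past the test. The fit was repeated with the homeostatic mean of each library subtracted from every gene. On that relative scale the log2 difference of Fcgr3 was −0.14 with a 95% interval of −0.38 to 0.10 (adjusted p = 0.909 by limma). Those of Fcgr2b and Syk were 0.0045 and 0.0048, with intervals of −0.25 to 0.25 and −0.27 to 0.28, and that of Fcgr1 was 0.11 with an interval of −0.20 to 0.42. The median of the 8 was 0.0046, and 3 genes were lower, beside 17.6% of all genes, a share that the subtraction itself shifts. That median ranged from −0.048 to 0.025 over the omissions of single mice, without GFP mouse 4 and without GFP mouse 1, and was 0.14 with the plaque-associated list as reference. That count was 1 without GFP mouse 1, 5 without GFP mouse 2, irisin mouse 1 or irisin mouse 3, and 7 without GFP mouse 4. None of the 8 passed on this scale or had an unadjusted p under 0.05, where 0.0228% and 3.69% of all genes did.

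The ratio of Fcgr3 to Fcgr2b within a mouse does not depend on library scaling. This ratio was chosen after the values had been seen, and it is given with no test. It was 1.65, 1.72, 1.52, 1.53 and 1.67 in GFP mice 1 to 5 and 1.36, 1.38, 1.59, 1.46 and 1.55 in irisin mice 1 to 5. Irisin mice 1, 2 and 4 lay below every GFP mouse, and mice 3 and 5 lay inside the GFP range. Means were 1.62 ± 0.0892 and 1.47 ± 0.102 (SD, n = 5 each), and the difference of −0.15 stayed between −0.18 and −0.12 when each mouse was left out. Because reads of these receptors can be divided between the paralogs, the ratio shares the uncertainty of both. The ratio of Fcgr1 to Fcgr2b was 0.488 ± 0.1104 and 0.520 ± 0.0759, and that of Syk to Ptpn6 was 0.780 ± 0.141 and 0.764 ± 0.161, each with wide overlap.

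Variation between mice of the same group was larger than the difference between groups for most of these genes, and much of it was shared. After group means were removed, GFP mice 3 and 5 were high and mice 2 and 4 low: mouse 5 was among the top pair of its group for all 8 tested genes and mouse 3 for 7, while mouse 4 had the lowest value for 5 genes and mouse 2 for 3. Among irisin mice, mouse 1 had the highest value for 5 of the 8 genes, and mice 4 and 5 had the lowest for 3 and 4. Btk departed from this, being lowest in irisin mouse 1. Fcgr1 departed in GFP mouse 4, which was 0.26 above its group mean for Fcgr1 (log2) and below it for the other 8 genes.

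**Figure D3:**
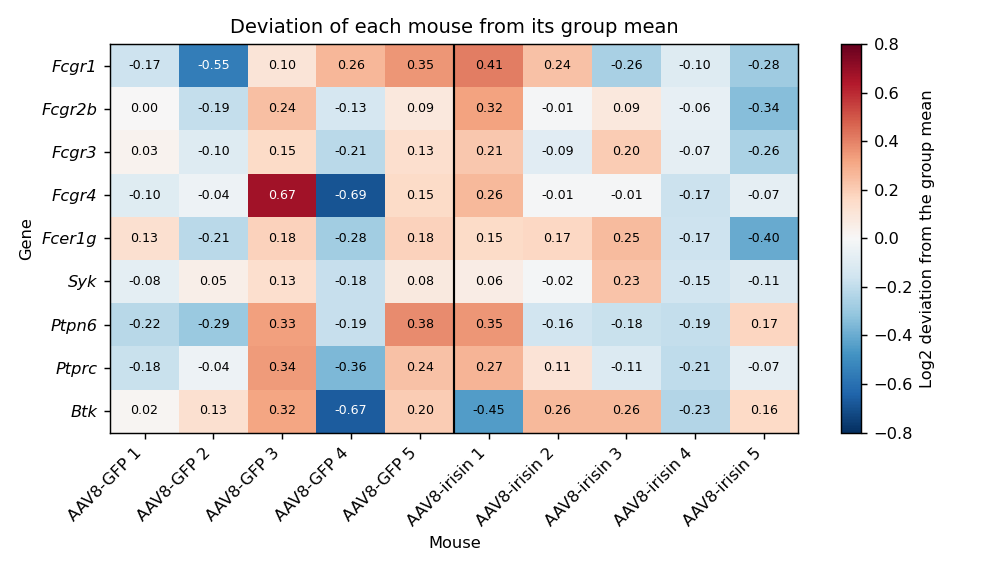
Log2 deviation of each mouse (columns, GFP left of the line and irisin right of it) from its group mean for the 9 genes (rows); red is above and blue below the group mean, and the number is printed in each cell. GFP mouse 4 is below its mean for all genes but Fcgr1, and irisin mouse 1 is above its mean for all genes but Btk.

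Correlations were taken over the 10 mice with group means removed, for all 36 pairs of the 9 genes. The permutations shuffled the 10 centred values across both groups and did not allow for the means removed. Their p values can therefore be somewhat too small, and those near the threshold are uncertain. Pearson r was above 0 in 33 pairs, with a median of 0.583 and a range of −0.370 to 0.903. The tightest pair was Fcgr2b and Fcgr3 (r = 0.903, permutation p = 0.00029, adjusted p = 0.00522 over 36 pairs, and Spearman rho = 0.964, permutation p = 6e-05, adjusted p = 0.00216). Without the 2 mice farthest from the median of Fcgr2b, r was 0.840. These genes share sequence, so shared reads could move with this value, and their part in it was not tested. Fcer1g correlated with Fcgr3 (r = 0.874, permutation p = 0.00134, adjusted p = 0.0121, rho = 0.806, permutation p = 0.00726, adjusted p = 0.0436, and r = 0.835 without 2 mice). It also correlated with Fcgr2b (r = 0.838, permutation p = 0.00121, adjusted p = 0.0121, rho = 0.806, permutation p = 0.00724, adjusted p = 0.0436, and r = 0.825 without 2 mice), although Fcer1g shares no 50-base word with another gene. Fcgr4 and Ptprc were the remaining pair past the threshold by Pearson r (r = 0.900, permutation p = 5e-05, adjusted p = 0.0018, rho = 0.927, permutation p = 0.00036, adjusted p = 0.00648, and r = 0.926 without 2 mice), on very low values of Fcgr4. By rank alone, Syk passed with Fcer1g (rho = 0.842, permutation p = 0.00375, adjusted p = 0.0338; r = 0.723, permutation p = 0.0218, adjusted p = 0.0848, and r = 0.567 without 2 mice). Syk also passed by rank alone with Fcgr4 (rho = 0.891, permutation p = 0.00126, adjusted p = 0.0151; r = 0.690, permutation p = 0.0236, adjusted p = 0.0848, and r = 0.547 without 2 mice). Fcgr1 and Fcgr3 had r = 0.303 (permutation p = 0.387, adjusted p = 0.465, rho = 0.406, permutation p = 0.247, adjusted p = 0.317) and r = 0.0257 without 2 mice, so no relation was shown between these receptors. The part of promoter sequence in any of these correlations was not tested.

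The 9 genes were also set against the means of both microglial lists, 18 relations in all. The permutations were made in the same way, so their p values have the same limit. With the plaque-associated mean, Fcgr3 had r = 0.931 (permutation p = 0.0003, adjusted p = 0.0027, rho = 0.927, permutation p = 0.00039, adjusted p = 0.00351, and r = 0.900 without 2 mice). Fcgr2b had r = 0.924 (permutation p = 1e-05, the smallest that these resamples can give, adjusted p = 0.00018, rho = 0.988, permutation p = 1e-05, adjusted p = 0.00018, and r = 0.868 without 2 mice). Fcer1g had r = 0.844 (permutation p = 0.00495, adjusted p = 0.0243, rho = 0.782, permutation p = 0.0107, adjusted p = 0.0481, and r = 0.861 without 2 mice). With the homeostatic mean, Fcgr2b alone passed by Pearson r (r = 0.800, permutation p = 0.00541, adjusted p = 0.0243), but its rank correlation missed the threshold (rho = 0.733, permutation p = 0.0195, adjusted p = 0.0502), and r was 0.880 without 2 mice. Fcgr4 passed by rank alone with that mean (rho = 0.855, permutation p = 0.00271, adjusted p = 0.0163; r = 0.646, permutation p = 0.0413, adjusted p = 0.0685, and r = 0.413 without 2 mice). Btk had r = 0.134 with the plaque-associated and 0.0995 with the homeostatic mean (permutation p = 0.699 and 0.782, adjusted p = 0.740 and 0.782). Its rho was 0.224 and 0.430 (permutation p = 0.538 and 0.220, adjusted p = 0.538 and 0.233), and r without 2 mice was 0.366 and −0.137. No batch is given in the labels, so none could be examined.

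The genes outside the 9 whose pattern over the 10 mice was most like their mean, by Pearson r of group-centred log2 values, were Slc1a4 (0.959), Msrb3 (0.949), Ctss (0.949), Sowahc (0.942), Srbd1 (0.928) and Fcrls (0.924). They are the highest of the 17548 other genes tested once symbols without a given name, such as Gm numbers, were left out. Their r values are therefore given as a description with no test. Ctss, a lysosomal protease of microglia, had 2946 ± 393 normalised counts in GFP mice and 2793 ± 255 in irisin mice. Fcrls, a microglial gene related in sequence to Fc receptors, had 995 ± 119 and 946 ± 104. Neither passed the test (adjusted p = 0.950 for both by limma).

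Around these genes, receptors and adaptors that also carry or use an ITAM also had lower means. The list of 17 genes analysed also holds Hcst, an adaptor gene without an ITAM that was not tested. Of the 17, 7 were tested, all 7 had lower means in irisin mice (median log2 difference −0.15), and 0 passed. Trem2, a lipid receptor of microglia, had 1055 ± 199 normalised counts in GFP mice and 905 ± 165 in irisin mice, and Tyrobp, its ITAM adaptor, had 739 ± 116 and 658 ± 110 (SD, n = 5 each; adjusted p = 0.942 for both by limma). A list of 12 genes held other receptors of antibody and receptor-like genes related to them. Of these, 5 were tested, 3 had a higher mean and 2 a lower one, with a median of 0.012. The receptors Fcgrt (0.012), Fcer2a (0.093) and Trim21 (0.029) were higher, and the related genes Fcrls (−0.072) and Fcrl1 (−0.18) lower. Fcrl1, a receptor-like gene of B cells, had 16.6 ± 7.22 and 13.7 ± 2.43 normalised counts. Src-family and Tec-family kinases divided into 5 higher and 4 lower of 9 tested (median 0.022), with 0 past the test. Src had 5553 ± 141 and 5261 ± 148, a log2 difference of −0.078 (unadjusted p = 0.0287, adjusted p = 0.942 by limma), and Lyn, which phosphorylates ITAMs in myeloid cells, had 299 ± 17.0 and 317 ± 16.3.

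Effectors below Syk had 13 lower and 11 higher means of 24 tested, with a median log2 difference of −0.044, and 0 passed at an adjusted p under 0.05. At an unadjusted p under 0.05, 3 were lower and 0 higher, where 2.21% and 2.28% of all genes were. Lat2, a membrane adaptor of myeloid and B cells that Syk phosphorylates (chromosome 5, 134600022 to 134615025), had 75.1, 112, 119.5, 74.7 and 111 normalised counts in GFP mice 1 to 5 and 61.2, 65.4, 79.6, 39.7 and 56.5 in irisin mice 1 to 5. Among irisin mice, mice 1, 2, 4 and 5 lay below every GFP mouse. The log2 difference was −0.70 with a standard error of 0.19 (unadjusted p = 0.00261, adjusted p = 0.942 by limma). Exons of Lat2 overlap those of Rfc2 on the opposite strand, which leaves its value uncertain.

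Plcg2, the phospholipase that Btk and Syk activate (chromosome 8, 117498291 to 117635142), had 303, 262.5, 299, 292 and 297 normalised counts in GFP mice 1 to 5. Irisin mice 1 to 5 had 256, 258, 247.5, 248 and 260.2. Every irisin value was under the lowest GFP value, by a narrow margin from GFP mouse 2, and Plcg2 is 1 of the 0.422% of genes whose groups did not overlap in that direction. The log2 difference was −0.19 with a standard error of 0.067 (unadjusted p = 0.0117, adjusted p = 0.942 by limma). The third was Prkcd, a protein kinase C of the same pathway, named after its value was seen, with 839 ± 45.5 and 760 ± 23.2 (SD, n = 5 each), a log2 difference of −0.14 (unadjusted p = 0.0143, adjusted p = 0.942 by limma).

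Inhibitory receptors and negative regulators had 13 lower and 10 higher means of 23 tested, with a median of −0.012, 0 past the test, and 2 lower and 0 higher at an unadjusted p under 0.05, where 2.21% and 2.28% of all genes were. Lilrb4a, an inhibitory receptor of myeloid cells, had 124, 70.6, 115, 89.0 and 113 normalised counts in GFP mice 1 to 5 and 85.3, 66.5, 67.5, 73.1 and 43.6 in irisin mice 1 to 5, and irisin mice 2, 3 and 5 lay below every GFP mouse. Its log2 difference was −0.60 with a standard error of 0.19 (unadjusted p = 0.00653, adjusted p = 0.942 by limma). This value is uncertain: 46.7% of the 50-base words of Lilrb4a occur in transcripts of other genes, mostly Gm49339 and Lilr4b. Exons of Lilrb4a overlap those of Gm49339 on the same strand and those of Gm40645 on the opposite strand. Ptpn22, a phosphatase of leukocytes, had 29.8 ± 11.2 and 19.0 ± 5.99 normalised counts (SD, n = 5 each; unadjusted p = 0.0468, adjusted p = 0.942 by limma).

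**Figure D4:**
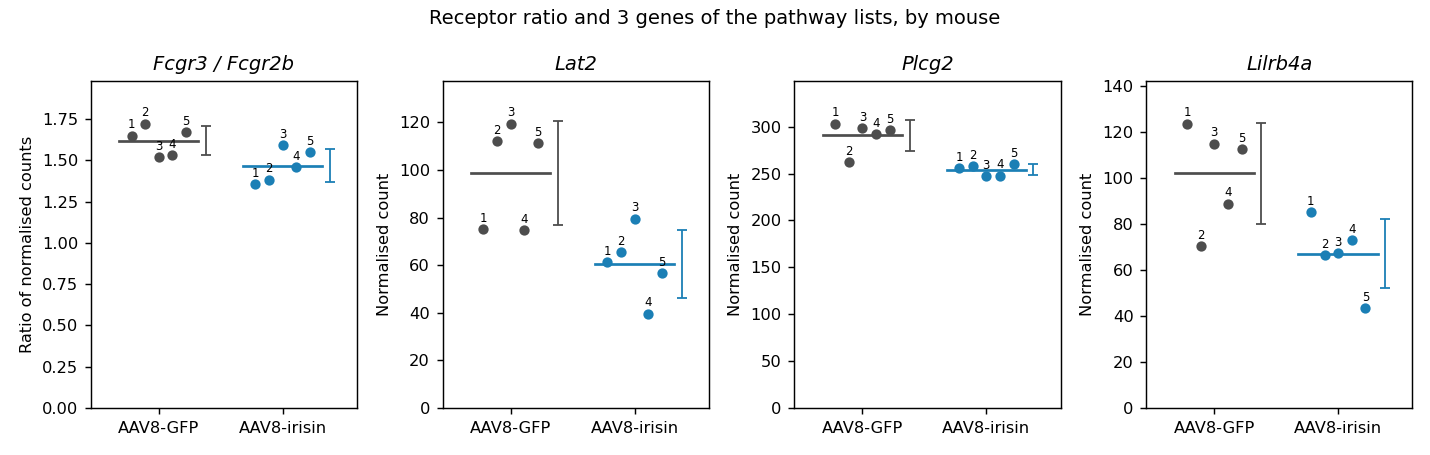
Ratio of Fcgr3 to Fcgr2b normalised counts within each mouse (first panel) and normalised counts of Lat2, Plcg2 and Lilrb4a (other panels), axes linear and from 0; points are mice labelled with their number, lines are group means and error bars SD (n = 5 each). Plcg2 is the panel without overlap, with all irisin mice between 247.5 and 260.2 and the lowest GFP mouse at 262.5.

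**Figure D5:**
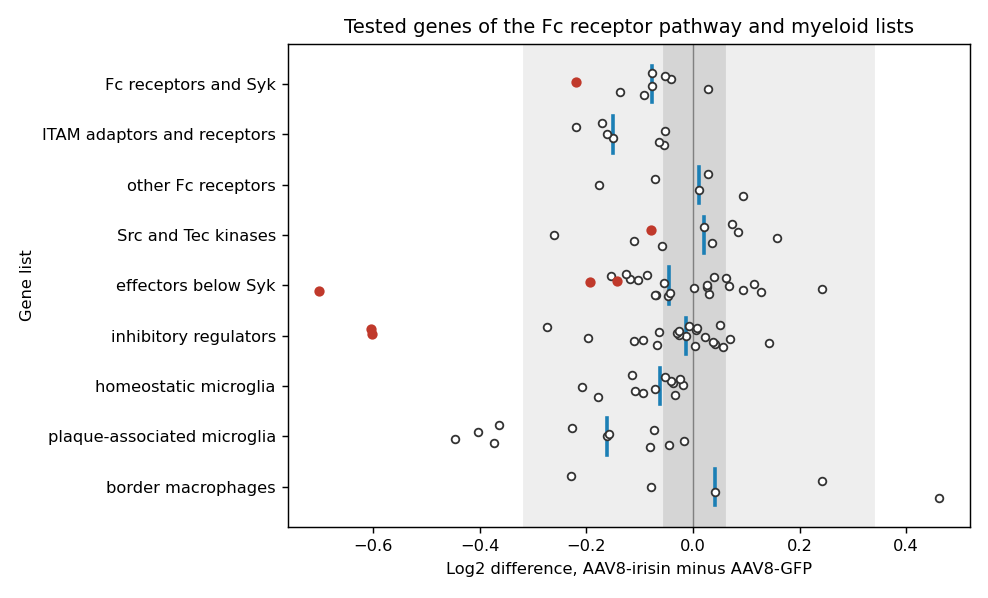
Log2 difference, irisin minus GFP (horizontal axis), of every tested gene of 9 lists (rows); filled red points have an unadjusted p under 0.05 by limma, open points do not, blue bars are list medians, and the dark and light bands hold the middle 50% and 95% of all genes tested. The 3 points farthest to the left are Lat2, Ptpn22 and Lilrb4a, and no point passed after adjustment over all genes.

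Markers of other cells that can carry these genes, and markers of red cells and choroid plexus, were examined in the same libraries. Border macrophage markers summed to 635 to 908 normalised counts in GFP mice and 608 to 924 in irisin mice over 8 genes, of which 5 were tested, 3 with a higher and 2 with a lower mean (median 0.041), and 0 passed. Mrc1, their mannose receptor, had 53.7 ± 13.1 and 67.2 ± 26.9, Stab1, a scavenger receptor, had 615 ± 77.6 and 527 ± 86.1, and the haemoglobin receptor gene Cd163 had 28.1 ± 7.06 and 39.7 ± 12.7 (SD, n = 5 each). The 8 T and NK cell genes analysed summed to 15.5 to 24.1 and 15.4 to 47.9, and 6 B cell genes to 39.9 to 69.8 and 30.1 to 62.2. All 3 B cell genes tested had a lower mean in irisin mice (median log2 difference −0.40) and 0 passed: Pax5, a B cell transcription factor, had 11.9 ± 1.75 and 8.30 ± 2.27, and Ms4a1, which encodes CD20, had 14.04 ± 3.99 and 10.3 ± 2.55. Mast cell genes summed to at most 3.15 and 6.76 over 6 genes, and Fcer1a, the IgE receptor chain that defines those cells with the gamma chain, was listed at 0 in all 10 libraries. Among 8 neutrophil genes, which summed to 368 to 482.5 and 321 to 451, Csf3r and Cxcr2 alone were tested and both had a lower mean (median log2 difference −0.17, 0 passed), while S100a8, S100a9, Ngp, Camp, Retnlg and Ltf each had means under 10. Of 14 immunoglobulin and antibody-secreting cell genes listed, 3 were found among the deposited values. The heavy and light chain genes of that list, Ighm and Igkc among them, were not found and could not be examined. Jchain and Sdc1, the 2 tested, both had a higher mean, with Jchain at 17.4 ± 5.55 and 21.0 ± 8.03. The 6 monocyte genes summed to 2115 to 2495 and 2223 to 2602. Red cell genes summed to 1586 to 4502 in GFP mice and 1669 to 3211 in irisin mice, and all 5 had a lower mean (median log2 difference −0.65). Of these, 0 passed. By limma 3 were lower and 0 higher at an unadjusted p under 0.05, where 2.21% and 2.28% of all genes were. Choroid plexus genes summed to 867 to 1141 and 1118 to 2940, the last in irisin mouse 4, where Ttr had 1528 normalised counts. In GFP mice Kl had the highest mean of these genes, 805 ± 89.8, beside 867 ± 58.3 in irisin mice (SD, n = 5 each). All 7 tested had a higher mean in irisin mice (median 0.49) and 0 passed. By limma 3 were higher and 0 lower at an unadjusted p under 0.05. Ttr had 29.5 ± 17.98 and 369 ± 650 normalised counts. The part of these cells in the differences above was not tested. With irisin mice 3 and 4, which hold the most Ttr, left out, the log2 difference of Fcgr3 was −0.26 and the number of the 8 genes with a lower mean was 5.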

How the data were processed

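Bulk hippocampal RNA of 10 mice was sequenced. Per the labels' protocols, oligo(dT) beads captured messenger RNA and libraries were made with an NEBNext Ultra kit, which favours polyadenylated transcripts. The submitters' processing notes name bcl2fastq 2.17, DESeq2 and mm10; aligner, counter, strand setting and annotation are not given in the sources used here. Deposited values are the authors' normalised signal per gene and library, called DESeq2 normalised counts by the file's name. With the most frequent low value of a library (0.882 to 1.17) taken as 1 read, 56.8% to 75.6% of its low values were whole within 0.1 reads, so whole reads were not recovered, the depth is unknown, no count model was run, and precision is given as the spread between mice.

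Samples were grouped by title, and the titles name separate mice. Genes with at least 10 in at least 5 libraries (17556) were fitted as log2(value + 1) with limma 3.58.1 in R 4.3.3 (group as factor, eBayes with trend, two-sided, Benjamini-Hochberg over all genes tested, threshold 0.05). The log2 scale with a pseudocount of 1 understates changes of low genes. Correlations used 100000 resamples of the group-centred values across both groups, and exact permutations all 252 assignments. The fit was tested on simulated data, where it called 48% of genes changed 1.25-fold and 80% of those changed 1.5-fold. Smaller changes were not simulated. Positions and exon lengths are from GENCODE M21 by symbol, promoters from RefSeq GRCm38.p6.

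The genes and lists were chosen with earlier results of these data known. Named genes were drawn from the 9, the 2 of smallest p of each list, Fndc5 and the first marker of a described list. Not every gene so drawn is printed with its values. The 6 most alike, among genes with a given name, are also named. Others are marked. Alternatives changed pseudocount, filter, scaling, prior, weights, block, reference and libraries; omission of single mice for correlations and all settings for the ratio were chosen after seeing the data. A further choice of microglial reference is not reported here.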

Additional observations from a re-analysis of the deposited data

How the results depend on the processing

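In the values as deposited, 0 genes passed in every setting but 1: without a filter on low values 1 gene passed and 1256 had an unadjusted p under 0.05, against 788. Leaving out each mouse gave 595 to 1096 such genes, 5 to 8 of the 8 genes with a lower mean, and medians of −0.133 to −0.0150. Fcgr4 entered only without the filter, with a log2 difference of 0.22 (adjusted p = 0.917 by limma). With irisin mice 3 and 4 left out, Ptpn6 was 0.082, Ptprc 0.052 and Cxcr2 0.0022. Over the omissions of single mice Fcgr1 ranged from −0.11 to 0.12, Fcgr2b from −0.16 to 0.0071, Ptpn6 from −0.13 to 0.052, Ptprc from −0.14 to 0.032, Btk from −0.26 to 0.019, Sdc1 from −0.041 to 0.24, Ly6c2 from −0.011 to 0.21 and Slc1a4 from −0.022 to 0.0013. The cause was not tested.

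Relative to microglial markers, the counts depended on the setting. Genes at an adjusted p under 0.05 numbered 4, against 8 with a pseudocount of 8, 43 with the replicate block and 44 with the plaque-associated list as reference, and 5 to 21 without single mice. Genes at an unadjusted p under 0.05 numbered 647, against 1686 with that reference and 384 to 1115 without single mice. Of the 8 genes, 1 was lower with that reference, and 1 to 7 without single mice. With the plaque-associated list, Fcer1g was 0.076 and Btk 0.12. Without single mice, Fcgr1 ranged from −0.00069 to 0.19, Fcgr2b from −0.037 to 0.060, Fcer1g from −0.12 to 0.016, Syk from −0.038 to 0.044, Ptpn6 from −0.032 to 0.12, Ptprc from −0.058 to 0.077 and Btk from −0.17 to 0.14. None of the 8 passed in any of these settings.

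The mouse numbers do not pair the samples: deviations of same-numbered mice correlated at −0.090 to 0.029, and 1 of 5 irisin mice correlated best with its own number. As deposited, the replicate block gave 0 genes at an adjusted p under 0.05 and 862 at an unadjusted one, and Fcgr3 had an adjusted p of 0.954 by limma, within its range of 0.794 to 0.9995 over all settings. The median r of 36 pairs was 0.521 with group means kept, 0.582 with a pseudocount of 8 and 0.517 to 0.661 without single mice. The table gives no read counts, so the precision of low genes such as Fcgr4 and Btk rests on 5 mice a group.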
